A study of Homo sapiens with 6 samples.

Results

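The zinc finger genes of chromosome 19 were taken as the rows of the deposited expression table that lie on chromosome 19 and whose symbol is ZNF followed by a digit. This rule chose 239 of 17100 rows and used no expression value. Their RNA was measured in MDA-MB-231 cells, an established human triple-negative breast adenocarcinoma line, by RNA sequencing of 3 libraries from vehicle-treated cells and 3 libraries from cells given guadecitabine (SGI-110). The drug was present at 1 µM for 96 h, and the cells were then left for 24 h without it before harvest. Vehicle and treated cells were the same line in the same medium, and the RNA of each group came from 3 independent experiments. The groups model a single line at a single dose and time, and the data are from bulk RNA, so that a change in the number of cells that express a gene and a change in RNA per cell cannot be told apart.

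Guadecitabine is a dinucleotide prodrug of decitabine, which is built into DNA and traps DNA methyltransferases, so that methylation is lost as cells divide. Most ZNF proteins of chromosome 19 carry an array of zinc fingers, which read DNA sequence, behind a KRAB domain, which binds the corepressor TRIM28 (KAP1). TRIM28 brings the histone methyltransferase SETDB1, heterochromatin protein 1 and histone deacetylases to the bound site, and many of these sites lie in retroelements. The genes arose by repeated duplication and lie in tandem clusters, where neighbours often resemble each other, and the promoters of several are known to be methylated in tumours.

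The DNA just upstream of 4 members shows the kind of sequence a methyltransferase inhibitor acts on. The first 3 are the members with the largest rises, and ZNF358 is the member with the largest fall. Each line gives the 150 bases before the deposited start on hg19, read 5′ to 3′ on the gene's own strand from the GRCh37 genome sequence, with every CG dinucleotide, the target of DNA methylation, in capitals.
ZNF560: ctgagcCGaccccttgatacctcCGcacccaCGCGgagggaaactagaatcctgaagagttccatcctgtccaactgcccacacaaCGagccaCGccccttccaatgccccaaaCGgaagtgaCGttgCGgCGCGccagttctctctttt
ZNF229: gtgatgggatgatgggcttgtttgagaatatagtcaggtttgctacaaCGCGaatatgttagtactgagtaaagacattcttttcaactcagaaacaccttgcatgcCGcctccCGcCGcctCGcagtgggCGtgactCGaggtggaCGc
ZNF582: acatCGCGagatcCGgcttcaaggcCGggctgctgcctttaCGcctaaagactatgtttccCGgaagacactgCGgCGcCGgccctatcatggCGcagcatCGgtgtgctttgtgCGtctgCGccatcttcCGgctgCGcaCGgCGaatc
ZNF358: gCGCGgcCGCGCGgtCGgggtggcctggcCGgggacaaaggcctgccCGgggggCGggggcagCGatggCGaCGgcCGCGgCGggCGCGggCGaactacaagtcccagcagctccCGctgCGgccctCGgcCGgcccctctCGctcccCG
These windows were chr19:9609280-9609429 on the minus strand with 11 CG for ZNF560, chr19:44952767-44952916 on the minus strand with 9 CG for ZNF229, chr19:56904890-56905039 on the minus strand with 17 CG for ZNF582, and chr19:7580854-7581003 on the plus strand with 24 CG for ZNF358. A CG was present in the same window of 97.5% of members and of 95.7% of all rows, with a median of 10 CG in members and 11 in all rows, so that holding CG sites did not set the members apart. No methylation was measured in these samples.

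The libraries held 17602570 to 22277442 exon counts for vehicle and 8792127 to 21410849 for guadecitabine, of which members took 0.167% to 0.191% and 0.202% to 0.261%. Vehicle replicate 3 stood apart in the lowest genes, with 20 rows at 0 counts against 2498 and 2517 in the other vehicle libraries and 1593 to 2090 in the guadecitabine libraries. In 16 members that held no more than 1 count in either other vehicle library, its median was 19.5 counts. The line's markers VIM, CD44, CAV1 and AXL were at 408 CPM (counts per 1000000 counts of the library, with a composition factor) or more in every library. ESR1, PGR, FOXA1 and CDH1, which this line lacks or holds low, reached at most 3.75 CPM, with the highest value of each in vehicle replicate 3. Of the markers of other cells, PTPRC, CDH5 and ALB had 0 to 2 counts in vehicle replicates 1 and 2, 11 to 36 in vehicle replicate 3 and 0 to 4 after guadecitabine, and PECAM1 had 2.92 to 5.86 CPM in all 6 libraries. The part of these background counts in the member results was not tested beyond the values without vehicle replicate 3 given below.

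Members were more often higher than lower after guadecitabine. The 6 libraries gave 223 members enough counts for a test, and 57 of these, or 25.6%, were higher at an adjusted p under 0.05 by the quasi-likelihood test of edgeR, adjusted after Benjamini-Hochberg over all genes, beside 19.3% of the 13322 genes tested in all. Only 7 members, or 3.14%, were lower, beside 18.4% of all genes. The median log2 fold change was 0.36 over the tested members, with quartiles of 0.06 and 0.81, and 0.02 over all genes. Without overlap between the groups, 84 members lay higher and 15 lower, beside 26.6% and 25% of all genes. Of 229 tested ZNF genes on other chromosomes, 24 were higher and 28 lower with a median of 0.01, and of 777 tested other genes of chromosome 19, 142 were higher and 160 lower with a median of -0.04. With all 6 libraries the share of higher members was thus above the background and the share of lower members far below it. Without guadecitabine replicate 1, the first difference was gone, with 40 of 222 members, or 18%, higher beside 17.7% of all genes, and the second remained, with 5.41% lower beside 18%. These are descriptions of lists, with no test between them, and every fold change compares 3 guadecitabine with 3 vehicle libraries. The tested members also held fewer counts, with a median over genes of the mean count of 118, beside 501 over all genes tested. How far these lower counts moved the shares called was not tested.

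**Figure D1:**
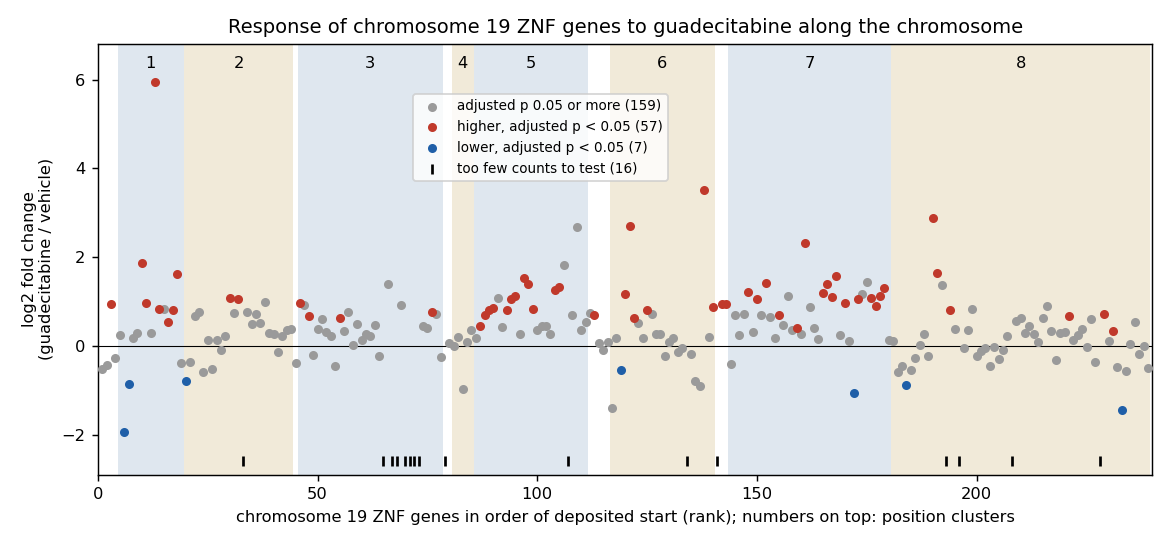
Log2 fold change (guadecitabine over vehicle) of each member, placed by its rank along chromosome 19, with position clusters 1 to 8 shaded and numbered. Red points are the 57 higher members, blue points the 7 lower ones, grey points the 159 others tested and black ticks the 16 with too few counts. Higher members crowd in clusters 1, 5 and 7, and ZNF560 stands highest at 5.95.

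Summed over all members, the level was 1744, 1789 and 1836 CPM in the vehicle libraries and 2526, 2022 and 2038 CPM after guadecitabine, a ratio of means of 1.23. The 3 guadecitabine sums all lay above the 3 vehicle sums, and replicate 1 lay well above the other guadecitabine libraries. Single members behaved alike, since guadecitabine replicate 1 held the highest guadecitabine value in 54 of the 57 higher members and in 165 of the 223 tested. Against the vehicle mean, the median log2 ratio of the tested members was 0.55 in guadecitabine replicate 1, 0.22 in replicate 2 and 0.27 in replicate 3. All 3 libraries thus showed the shift, by unequal amounts. The sum of the ZNF genes on other chromosomes was 3875 to 3922 CPM in vehicle and 3616 to 4007 CPM in guadecitabine, and these ranges overlapped.

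The largest rises came from genes that were silent or nearly so in vehicle. ZNF560 (NM_152476, chr19:9577031-9609279), a KRAB zinc finger gene of cluster 1, had 0, 0 and 10 counts in vehicle and 235, 94 and 188 counts after guadecitabine. Scaled to library size this was 0, 0 and 0.431 CPM against 10.6, 10.7 and 10.6 CPM, so that the treated libraries agreed closely. None overlapped with vehicle, which was a condition for naming the largest rises and falls. The fitted log2 fold change was 5.95 ± 0.643 (SE, edgeR adjusted p = 0.000134), and against a floor of 3 counts in each of vehicle replicates 1 and 2 the guadecitabine mean was at least 63.2-fold higher.

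ZNF229 (NM_001278510, chr19:44930423-44952766), a KRAB gene of cluster 6, had 0, 0 and 32 counts in vehicle and 138, 43 and 106 after treatment. Its log2 fold change was 3.51 ± 0.998 (SE, edgeR adjusted p = 0.0221), and with the same floor the rise over vehicle replicates 1 and 2 was at least 33.9-fold. Vehicle replicate 3 alone held counts among the vehicle libraries for both genes. Both also met a rule of near silence in vehicle replicates 1 and 2 and counts in every treated library. A fit without vehicle replicate 3, or a floor on the other 2, therefore adds no separate support for their rise. The call for ZNF229 was lost with DESeq2 (adjusted p = 0.168) and without guadecitabine replicate 1 (edgeR adjusted p = 0.0737) or replicate 3 (0.0955). These were the only 2 members with at most 3 counts in vehicle replicates 1 and 2 and at least 30 in every guadecitabine library.

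ZNF582 (chr19:56894648-56904889), a KRAB gene whose promoter is known to be methylated in several carcinomas, had 6, 15 and 28 counts in vehicle and 141, 44 and 120 after guadecitabine. Its CPM values of 0.319, 0.884 and 1.21 lay clearly below those of 6.37, 5 and 6.76 after treatment, with a log2 fold change of 2.89 ± 0.439 (SE, edgeR adjusted p = 0.000963). ZNF578 (chr19:52956829-53020131) in cluster 7 went from 0.319, 0.707 and 1.9 CPM to 5.7, 4.2 and 4.96 CPM, a log2 fold change of 2.31 ± 0.551 (SE, edgeR adjusted p = 0.0101). In both genes the highest vehicle value was again that of replicate 3.

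Other members rose from a level that was measurable in every vehicle library. ZNF699 (chr19:9405986-9415795) had 1.75, 1.77 and 2.46 CPM in vehicle and 9.31, 6.14 and 6.43 CPM after treatment, a log2 fold change of 1.87 ± 0.273 (SE, edgeR adjusted p = 0.000766). ZNF583 (chr19:56915383-56936400), the gene next to ZNF582, had 3.35, 3.07 and 3.58 CPM against 13.5, 7.84 and 9.81 CPM (log2 fold change 1.65 ± 0.232 SE, edgeR adjusted p = 0.000614). In both genes the vehicle libraries lay close together and guadecitabine replicate 1 was the highest library.

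ZNF468 (chr19:53341785-53360902) had 7.76, 8.96 and 7.63 CPM in vehicle and 31.7, 19.2 and 21.1 CPM after guadecitabine, a log2 fold change of 1.58 ± 0.199 (SE, edgeR adjusted p = 0.00033). ZNF841 (chr19:52567719-52599018), also of cluster 7, had 10.2, 12.4 and 11.3 CPM against 43, 22.2 and 24.1 CPM (log2 fold change 1.42 ± 0.242 SE, edgeR adjusted p = 0.00181). Both encode KRAB proteins, and in both the groups stood well apart, where no overlap was a condition for naming them. Of the 57 higher members 28 had a log2 fold change of at least 1, the smallest change was 0.33 (ZNF544), and the median was 0.97.

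**Figure D2:**
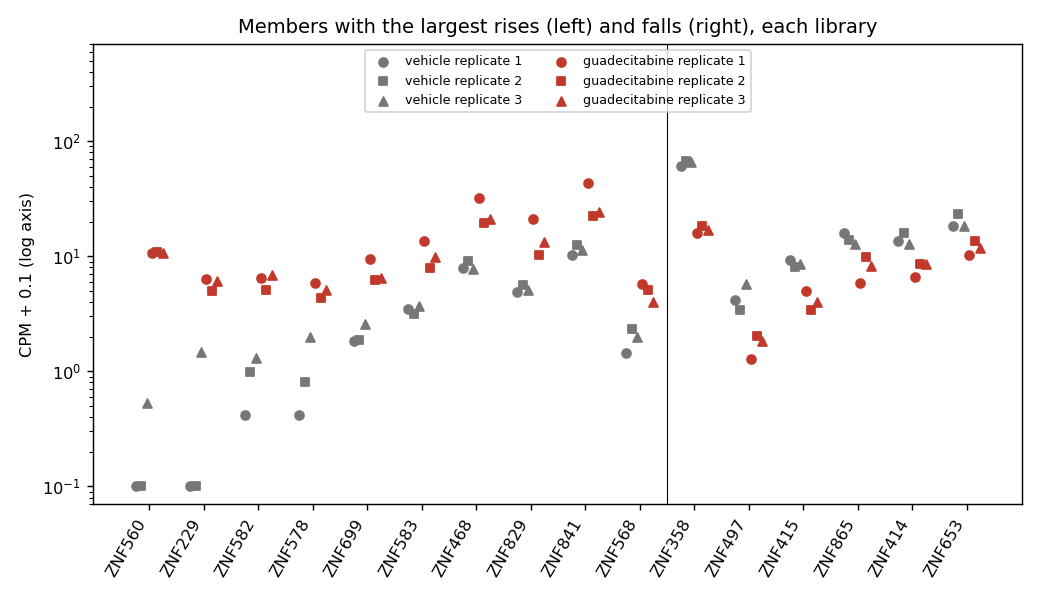
CPM plus 0.1 on a log axis for the 10 members with the largest rises and the 6 with falls among called members with a mean of at least 50 counts and no overlap of the groups (which leaves out ZNF404 at 2.70 and ZNF812 at 1.62), with grey symbols for vehicle and red for guadecitabine and a symbol shape per replicate. ZNF560 and ZNF229 sit at the 0.1 floor in vehicle replicates 1 and 2 and at 4.89 to 10.7 CPM after treatment, and ZNF358 drops from 60.2 to 67.1 CPM to 15.8 to 18.1 CPM.

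Falls were few, and most came from genes without a KRAB domain. ZNF358 (NM_018083, chr19:7581004-7585911), which encodes 9 zinc fingers and no KRAB domain, was the member with the highest level per exon length in vehicle. It had 1132, 1139 and 1522 counts in vehicle and 350, 159 and 296 after guadecitabine, or 60.2, 67.1 and 65.6 CPM against 15.8, 18.1 and 16.7 CPM. The 2 groups were far apart with little spread within each, and the log2 fold change of -1.94 ± 0.109 (SE, edgeR adjusted p = 2.74e-06) made it the most strongly lowered member. ZNF497 (chr19:58865723-58874214) went from 4.04, 3.3 and 5.61 CPM to 1.18, 1.93 and 1.75 CPM, a log2 fold change of -1.44 ± 0.358 (SE, edgeR adjusted p = 0.0122).

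ZNF865 (log2 fold change -0.87 ± 0.204 SE), ZNF414 (-0.86 ± 0.167) and ZNF653 (-0.78 ± 0.158) were lower by less than 1 on the log2 scale. Each had no overlap between the groups, which was a condition for naming the largest falls. ZNF415 (chr19:53611132-53636173) was the only lower member with a KRAB domain among the 7, at 9.15, 7.9 and 8.41 CPM in vehicle and 4.93, 3.3 and 3.89 CPM after guadecitabine (log2 fold change -1.05 ± 0.204 SE, edgeR adjusted p = 0.0037). It lies in cluster 7, where 16 other members rose. ZNF428 was the 7th lower member, with 24.8, 26.1 and 17.4 CPM against 13.2, 18.9 and 15.1 CPM, and its groups overlapped. Its call (log2 fold change -0.55 ± 0.187 SE, edgeR adjusted p = 0.0461) was lost without vehicle replicate 1 (0.15) or 2 (0.166) or guadecitabine replicate 1 (0.119) or 3 (0.151).

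Position clusters were set where the starts of neighbouring members lay within 1 Mb of each other, and 8 of the 16 groups so formed held at least 5 members and 224 members in all. Cluster 5 (chr19:36672962-38270230) rose as broadly as any. Of 25 tested members 12 were higher and 0 lower, 25 of 25 had a positive log2 fold change, and the median was 0.80. DESeq2 called 13 higher and 0 lower there, and at an unadjusted p under 0.05 edgeR had 15 higher and 0 lower. The summed level of the cluster was 163.5, 162.8 and 177.7 CPM in vehicle and 341.6, 230.3 and 235.3 CPM after guadecitabine, so that every treated library lay above every vehicle library.

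Within cluster 5 the largest rises were those of ZNF829 (log2 fold change 1.54 ± 0.252 SE), ZNF568 (1.40 ± 0.324), ZNF570 (1.33 ± 0.257) and ZNF569 (1.25 ± 0.191). ZNF568 encodes a KRAB protein whose mouse counterpart is known to repress a placental transcript of Igf2. ZNF569 (chr19:37902060-37958339), the member of this cluster with the smallest p, had 7.55, 8.67 and 9.74 CPM in vehicle and 26.2, 17.5 and 17.6 CPM after treatment (edgeR adjusted p = 0.00103). ZNF146, which encodes a protein of zinc fingers alone, was among the 5 members with the highest level per exon length and rose less, from 66.8, 62.4 and 61.9 CPM to 110, 75.3 and 75.7 CPM (log2 fold change 0.45 ± 0.154 SE, edgeR adjusted p = 0.0449). The call was lost without any of 5 of the 6 libraries, guadecitabine replicate 2 being the exception, at adjusted p of 0.058 to 0.117. Its row overlaps that of ZNF565 on the other strand, and the counting is not stated to use strand.

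Cluster 7 (chr19:52074531-54083523) had 16 of 37 tested members higher and 1 lower, with a median log2 fold change of 0.73. Its summed level was 227, 229.9 and 235.1 CPM in vehicle and 465.5, 305.2 and 328 CPM after guadecitabine, with no overlap. Besides ZNF578, ZNF468 and ZNF841, the higher members included ZNF600 (log2 fold change 1.39 ± 0.212 SE), ZNF813 (1.30 ± 0.287) and ZNF350 (1.21 ± 0.198), the gene of the BRCA1 partner ZBRK1. These and the others of the 16 lay from 0.41 (ZNF528) to 2.31 (ZNF578) on the log2 scale.

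Cluster 1 (chr19:7069471-9879410) held changes in both directions. Of 15 tested members 7 were higher and 2 lower, with a median of 0.53. The 7 higher members, ZNF560, ZNF699, ZNF812, ZNF559, ZNF426, ZNF562 and ZNF561, started between 9.41 and 9.80 Mb, and the 2 lower ones, ZNF358 and ZNF414, started at 7.58 and 8.58 Mb. The opposed changes nearly cancelled in the summed level, which was 201.4 to 213.9 CPM in vehicle and 204.8 to 257.5 CPM after guadecitabine, with overlap. Rows of other genes inside the clusters did not move in 1 way. In cluster 1, 2 of 30 tested were higher and 12 lower, with a median of -0.31. In cluster 5, 4 of 5 were higher with a median of 0.89, beside 0.80 for the members there. These 5 rows included zinc finger genes under other names: ZFP82 and ZFP30, which were higher, and ZFP14, which edgeR did not call. The values for cluster 5 thus do not show how unrelated neighbours moved. In cluster 6, 6 of 21 were higher and 3 lower with a median of 0.37, beside 0.19 for the members there.

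The other clusters moved less. Cluster 6 (chr19:44037340-45579688) had 6 of 23 tested members higher and 1 lower with a median of 0.19, and its summed level of 129.1 to 137.4 CPM in vehicle lay below that of 150 to 167.3 CPM after guadecitabine. Besides ZNF229 its strongest rise was that of ZNF404 (chr19:44376515-44384288), from 0.744, 0.707 and 0.431 CPM to 5.15, 2.84 and 4.11 CPM (log2 fold change 2.70 ± 0.429 SE, edgeR adjusted p = 0.00125). This member was low in all 3 vehicle libraries, replicate 3 included.

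Cluster 3 (chr19:19778962-24312769), which lies next to the centromere on the short arm, had 4 of 26 tested members higher and 0 lower by edgeR and by DESeq2, with 4 and 0 at an unadjusted p under 0.05 and a median of 0.42. ZNF101 in this cluster had 13.6, 14.7 and 12.7 CPM in vehicle and 28.5, 26 and 25.1 CPM after guadecitabine (log2 fold change 0.96 ± 0.117 SE, edgeR adjusted p = 0.00027). Cluster 2 (chr19:11594242-12740676) had 2 of 24 higher, ZNF844 (1.05 ± 0.27) and ZNF433 (1.07 ± 0.364), and 1 lower, ZNF653, with a median of 0.33, and ZNF844 was lost without vehicle replicate 1 (edgeR adjusted p = 0.0552). Cluster 8 (chr19:55987699-59000900), the largest, had 6 of 55 higher and 2 lower with a median of 0.12, and cluster 4 (chr19:35168544-35454953) had 0 of 5 higher and 0 lower by both tools, with 1 higher at an unadjusted p under 0.05 and a median of 0.09. The shares called higher thus ran from 0% in cluster 4 and 8.33% in cluster 2 to 48% in cluster 5, beside 19.3% of all genes, and no test was made between clusters.

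**Figure D3:**
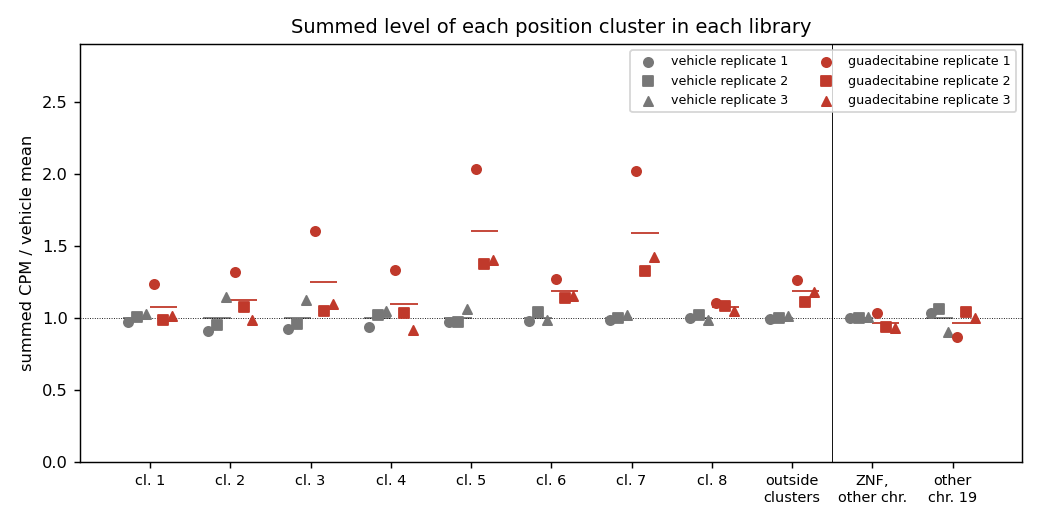
Summed CPM of each position cluster, of the members outside clusters, and of both comparison classes in each library, divided by the vehicle mean, with a horizontal bar at each group mean. Guadecitabine libraries (red) lie above all vehicle libraries (grey) in clusters 5, 6, 7 and 8 and outside clusters, and overlap with them in clusters 1 to 4 and in both comparison classes.

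Calls in the clusters moved with single libraries. Without vehicle replicate 3, the higher members numbered 11 in place of 2 in cluster 2, 8 in place of 4 in cluster 3 and 11 in place of 6 in cluster 8. These were 45.8%, 30.8% and 20% of those tested, beside 22.6% of all genes in that fit. Without guadecitabine replicate 1 the higher members numbered 1 (4.17%) in cluster 2, 2 (8%) in cluster 3 and 3 (13%) in cluster 6, beside 17.7% of all genes. In cluster 3, 2 members then were lower. In clusters 1, 5 and 7 the numbers were 7, 16 and 21 (46.7%, 61.5% and 56.8%) without vehicle replicate 3. They were 5, 9 and 12 (33.3%, 36% and 32.4%) without guadecitabine replicate 1. The medians of clusters 5 and 7 were 0.85 and 0.86 without the former and 0.54 and 0.50 without the latter, so that both stayed the clusters with the highest medians of the 8 in either case.

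Members with and without a KRAB domain had different counts. A KRAB motif was found in 197 of the 233 members whose coding sequence could be translated here, and 186 of them were tested. Of these 52, or 28%, were higher and 1, or 0.538%, was lower, beside 19.3% and 18.4% of all genes, with a median log2 fold change of 0.42. Without guadecitabine replicate 1 these numbers were 37 of 185, or 20%, and 6, or 3.24%, beside 17.7% and 18% of all genes. Of the 31 tested members without KRAB, 4 were higher and 6 lower, with a median of -0.08. ZNF genes with KRAB on other chromosomes, 93 of them tested, had 9 higher and 6 lower and a median of 0.07, and the 131 without KRAB had 15 higher and 22 lower and a median of -0.05. The summed level of the KRAB members of chromosome 19 was 1121 to 1243 CPM in vehicle and 1412 to 1926 CPM after guadecitabine, without overlap, whereas that of the members without KRAB was 515.7 to 592.3 CPM against 508 to 541.2 CPM, with overlap. The 4 higher members without KRAB were ZNF146, ZNF260, ZNF296 and ZNF329.

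Inside clusters 1 and 8 the medians also had opposite signs. In cluster 1 the 11 tested KRAB members had a median of 0.53 with 6 higher and 0 lower (DESeq2 called 7 and 0, and edgeR had 8 and 0 at an unadjusted p under 0.05), and the 3 without KRAB had a median of -0.86 with 2 lower. In cluster 8 the medians were 0.29 over 39 KRAB members and -0.26 over 15 without. Cluster 5 went the other way, since 2 of its 3 tested members without KRAB were higher, with a median of 0.45. Both members in which the SCAN pattern was matched, ZNF444 and ZNF446, had negative log2 fold changes of -0.22 and -0.50 that passed no test (edgeR adjusted p = 0.36 and 0.128). For 6 members no coding sequence was obtained here, so that KRAB and SCAN could not be scored in them. They were ZNF812, which was higher by edgeR (adjusted p = 0.0461), and ZNF442, ZNF714, ZNF43, ZNF781 and ZNF274, which edgeR did not call. DESeq2 also called ZNF781 higher (adjusted p = 0.0397), and without vehicle replicate 3 edgeR called ZNF442 (0.00233) and ZNF781 (5.23e-05) higher. ZNF274, which is known to bring SETDB1 to the coding ends of other zinc finger genes, stood at a log2 fold change of 0.12 (edgeR adjusted p = 0.377).

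**Figure D4:**
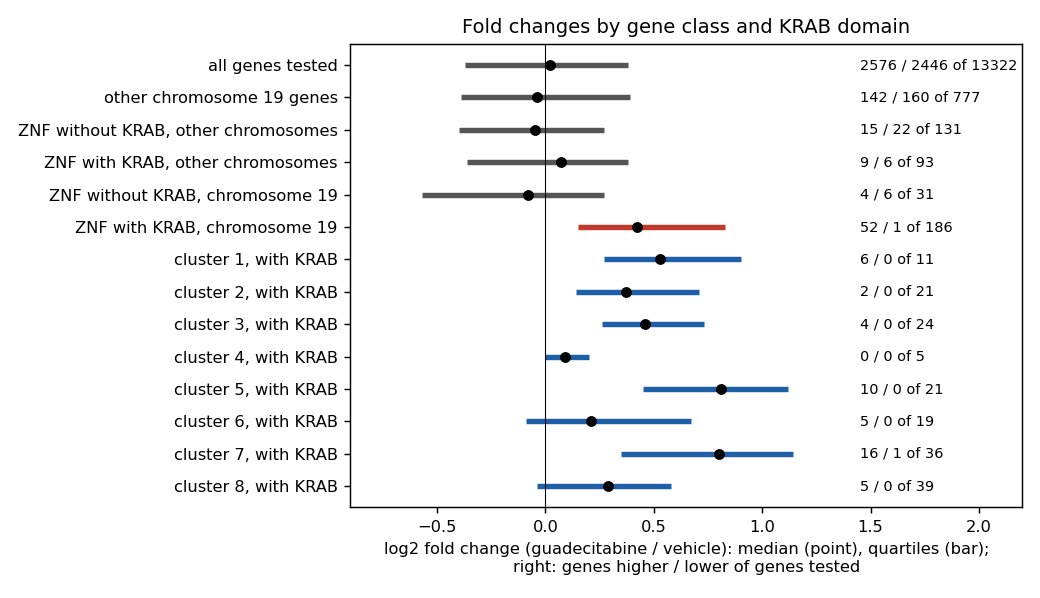
Median (point) and quartiles (bar) of log2 fold changes for all genes tested, gene classes and the KRAB members of each cluster, with the numbers higher and lower of those tested on the right. Grey bars are comparison classes and members without KRAB, the red bar is the KRAB members of chromosome 19, whose quartiles of 0.15 and 0.83 lie above 0, and blue bars are their clusters.

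Among members whose promoters are known to be methylated in tumours, 9 had rows and 8 were tested. ZNF582 was higher and 0 were lower by edgeR and by DESeq2, with 2 higher and 0 lower at an unadjusted p under 0.05, and all 8 log2 fold changes were positive with a median of 0.79. The 12.5% called higher by edgeR lay below the 19.3% of all genes. ZNF382, a candidate tumour suppressor, had 8, 8 and 35 counts in vehicle and 51, 9 and 31 after guadecitabine, and ZNF154, a gene methylated in many tumour types, had 13, 8 and 57 against 63, 22 and 27. In both genes vehicle replicate 3 overlapped the treated libraries, and neither passed (edgeR adjusted p = 0.211 and 0.301). Without that library 5 of the list were higher, beside 22.6% of all genes higher and 19.4% lower in that fit, and ZNF382 (log2 fold change 1.99, edgeR adjusted p = 0.00424) and ZNF154 (1.95, 0.0032) were among them with ZNF667 (3.59, 0.00404) and ZNF132 (0.81, 0.0128). ZNF331, an imprinted gene, had 7.92 to 8.97 CPM in vehicle and 7.16 to 10.8 CPM after treatment (log2 fold change 0.14 ± 0.186 SE). ZNF671 (0.33) and ZNF577 (0.69) passed no test, and ZNF471 had 0, 0 and 28 counts against 18, 3 and 9, too few to test.

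Of 8 members known to bind retroelements, 2 were higher and 0 lower by edgeR, 3 and 0 by DESeq2 and 3 and 0 at an unadjusted p under 0.05, and the median log2 fold change was 0.42. The 25% called higher by edgeR were near the 19.3% of all genes. ZNF611 had 9.3, 8.31 and 6.94 CPM in vehicle and 23.6, 15.2 and 16.7 CPM after guadecitabine (log2 fold change 1.19 ± 0.196 SE, edgeR adjusted p = 0.0015), and ZNF765 had 6.11, 6.01 and 4.74 CPM against 13, 9.89 and 8.12 CPM (0.89 ± 0.216, adjusted p = 0.0111). ZNF91, a repressor of SVA elements, had 8.51, 8.78 and 9.79 CPM against 19.5, 6.36 and 10.1 CPM. Its treated libraries spread on both sides of the vehicle range, and it passed no test (log2 fold change 0.44 ± 0.331 SE, edgeR adjusted p = 0.325). ZNF93, which binds LINE-1 elements, stood at 0.39 (adjusted p = 0.22), and the close paralogs ZNF417 and ZNF587, which bind endogenous retrovirus K, had 0.38 and 0.14. Only 66% and 73.3% of the 50-base exon stretches of these last members are unique in the genome, so that their counts may be shared. ZNF649 (0.24) and ZNF808 (0.87, edgeR adjusted p = 0.0546) complete the list.

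RNA of the proteins through which KRAB zinc fingers act was mostly lower or did not pass the test. Of 20 genes of that machinery 1 was higher and 8, or 40%, were lower by edgeR, beside 18.4% of all genes lower, and 1 and 9 by DESeq2, with a median log2 fold change of -0.21. TRIM28 had 691, 782 and 621 CPM in vehicle and 463, 572 and 523 CPM after guadecitabine (log2 fold change -0.43 ± 0.121 SE, edgeR adjusted p = 0.0218), and SETDB1 had 28.4, 31.1 and 29.9 CPM against 22.4, 22.7 and 22.5 CPM (-0.40 ± 0.0994, adjusted p = 0.0117). Neither overlapped between groups. The others lower were UHRF1, HDAC1, CBX5, ATF7IP, CHD3 and SUMO2, and DAXX was higher (0.44 ± 0.0968). The call of TRIM28 was lost without vehicle replicate 1 or 2 or guadecitabine replicate 1 or 3 (edgeR adjusted p = 0.0566 to 0.106), and that of SETDB1 without vehicle replicate 2 (0.0695). CBX5 (0.0562 to 0.0917) and CHD3 (0.0744 to 0.125) lost theirs without vehicle replicate 1 or 2 or guadecitabine replicate 2 or 3. ATF7IP did so without vehicle replicate 1 or 3 or guadecitabine replicate 2 or 3 (0.0708 to 0.119). SUMO2 did so without vehicle replicate 1 or 2 or guadecitabine replicate 3 (0.0528 to 0.0842). UHRF1, HDAC1 and DAXX kept their calls with any single library left out. DNMT1, the target of the drug, stood at -0.21 on the log2 scale and was called lower by DESeq2 (adjusted p = 0.0333) and not by edgeR (adjusted p = 0.102).

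Zinc finger genes of chromosome 19 that carry other names lie among the members. Of 13 such rows 9 were tested, with a median of 0.89. Of these 4 were higher (44.4%) and 1 was lower (11.1%), beside 19.3% and 18.4% of all genes. ZIK1, a KRAB gene of the long arm, had 0, 0.059 and 0.819 CPM in vehicle and 8.23, 6.14 and 7.55 CPM after treatment (log2 fold change 4.48 ± 0.775 SE, edgeR adjusted p = 0.00196) and, as with ZNF560, most of its few vehicle counts came from replicate 3. ZFP30, ZFP28 and ZFP82 were the other higher ones, at 1.21, 1.03 and 0.89, and ZSCAN18 was lower at -0.53.

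Levels per kb of exon were low in most members. The median of the tested members in vehicle was 1.55 CPM per kb, beside 8.29 CPM per kb over all genes tested, and the exon lengths were alike, with medians of 3047 and 2933 bp. The highest vehicle levels were those of ZNF358 (32.9 ± 1.87 CPM per kb, SD, n = 3), ZNF787 (26.8 ± 4.58), ZNF581 (24.5 ± 3.73), ZNF428 (19.2 ± 3.94) and ZNF146 (18.2 ± 0.774). In this order ZNF787 and ZNF581 differed by less than either SD, and so did ZNF428 and ZNF146 by less than the SD of ZNF428. After guadecitabine the levels were 8.63 ± 0.58, 32.5 ± 7.65, 25.2 ± 5.17, 13.2 ± 2.41 and 24.9 ± 5.67 CPM per kb in the same order of genes, so that ZNF358 left the top of the list. ZNF787 and ZNF581 passed no test (edgeR adjusted p = 0.294 and 0.902). None of these 5 members has a KRAB motif.

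Some members start head to head with another gene, within 1000 bp and on opposite strands. Among 6 such pairs of members, both were higher in 2 pairs, 1 of the pair in 3 pairs and neither in 1 pair. All but the last, ZNF490 and ZNF791, lie in cluster 5, where 48% of the tested members were higher. ZNF829 and ZNF568 start 37 bp apart and were both higher, and so were ZNF569 and ZNF570, 334 bp apart (1.25 and 1.33). In contrast ZNF790 was higher (1.12 ± 0.253 SE) beside ZNF345 (0.26 ± 0.452), which passed no test, and ZNF529 was higher (0.85) beside ZNF382 (1.07 ± 0.631), whose estimate was larger but less certain. ZNF850 was higher with the uncharacterised LOC728485 opposite it (1.05 and 3.25). IRGQ was higher at 1.30 with ZNF576 opposite it at 0.17, which passed no test. ZNF473 was higher (0.94) opposite VRK3 (0.10), which was not called. FIZ1 was lower (-0.55) opposite ZNF524 (-0.45), which was not called, and neither DEDD2 (0.55) nor ZNF526 (0.09) was called.

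Other features of the members went with smaller differences. Finger number was a median of 12 in the members, up to 36 in ZNF208, beside 8 in ZNF proteins coded elsewhere, and the median log2 fold change was 0.07 in members with 1 to 7 fingers, 0.41 with 8 to 11, 0.37 with 12 to 15 and 0.42 with 16 or more. By the number of CG in the 1000 bp around the start, members with 5 to 51 had 24 of 78 tested higher (30.8%) and 1 lower, with a median of 0.40. Those with 52 to 64 had 17 of 69 higher (24.6%) and 1 lower, with a median of 0.45. Those with 65 to 122 had 16 of 76 higher (21.1%) and 5 lower, with a median of 0.27. Of all genes 19.3% were higher and 18.4% lower, so that the share higher in the last class was near that of all genes. By sequence, 9 members had under 80% unique 50-base stretches, and of the 8 tested 0 were higher or lower by edgeR or DESeq2 or at an unadjusted p under 0.05. Restricted to the 128 tested members with at least 95% unique stretches, 30 were higher (23.4%) and 6 lower (4.69%), with a median of 0.33.

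The 16 members not tested had at most 29 counts in any library, and at most 21 outside vehicle replicate 3. They were ZNF20 in cluster 2, ZNF208, ZNF676, ZNF729, ZNF492, ZNF99, ZNF728 and ZNF730 in cluster 3, ZNF540 in cluster 5, ZNF233 in cluster 6, ZNF471, ZNF835, ZNF773 and ZNF135 in cluster 8, and ZNF536 and ZNF541 outside clusters. Cluster 3, which holds many long finger arrays, thus had 7 of its 33 members below what the filter on low counts let through. A rise to the counts of ZNF560 or ZNF229 would have passed that filter, while a rise that kept a gene at these low counts was not detectable at this depth.

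How many members were called depended on single libraries more than on the tool. Without vehicle replicate 1 or 2, 39 and 42 members were higher. Calls over all genes fell as well, from 2576 of 13322 higher to 1802 of 13561 and 1840 of 13643. Without vehicle replicate 3, 86 members (38.6%) were higher and 9 (4.04%) lower with a median of 0.50, beside 22.6% and 19.4% of all genes. Of the 57, 53 were among the 86. Without guadecitabine replicate 1, 40 were higher and 12 lower with a median of 0.24, beside 17.7% and 18% of all genes, and 39 of the 57 were among the 40. With offsets for GC content and exon length, chosen after seeing the data, 60 members were higher and 20 lower with a median of 0.25, while all genes moved from 2576 higher and 2446 lower to 2159 and 3414, or 16.2% and 25.6%, and their median from 0.02 to -0.10. Over the 15 fits made, 31 members were higher and 6 lower in every one. A member that a fit did not test counted as not called in that fit. The fit with the strictest filter on low counts left out ZNF560, ZNF229, ZNF582 and ZNF578. These large rises thus could not be among the 31, whatever the other fits gave. No share of all genes called in every fit is given beside these counts. Members that lost their call in a fit included ZNF544, ZNF528, ZNF433, ZNF812 and ZNF561. Their edgeR adjusted p lay between 0.0333 and 0.0461 in the test of all 6 libraries and above 0.05 when single libraries were left out.

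**Figure D5:**
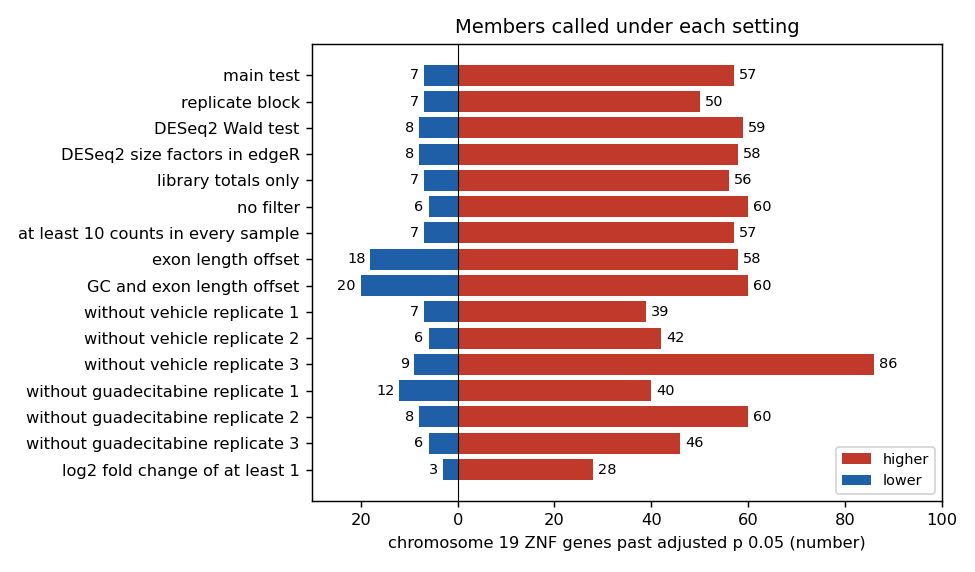
Number of members past an adjusted p of 0.05 under each setting, higher to the right in red and lower to the left in blue. The main test gives 57 and 7, the higher count runs from 28 with a fold threshold to 86 without vehicle replicate 3, and the lower count from 3 to 20.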

How the data were processed

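The authors aligned reads to hg19 with STAR 2.3.1z and deposited raw counts of exon reads per gene, counted with iRNA-seq from TruSeq libraries. Read length, strand and the handling of reads that match several places are not given in the sources used here. Values on the log2 scale and the authors' own comparison, which the deposited table also holds, were not used. Members and gene lists were chosen with earlier results of these data known. The test was that of edgeR 4.0.16 under R 4.3.3 (TMM, filterByExpr with a minimum count of 10, glmQLFit and glmQLFTest, two-sided) on the raw counts, with Benjamini-Hochberg adjustment over 13322 genes and a threshold of 0.05, and with DESeq2 1.42.0 as an alternative. CPM values (counts per 1000000 counts of the effective library size) carry the TMM factors. On simulated counts of 13152 genes edgeR recovered 70 of 100 genes changed by a log2 fold of 1 and 88 of 96 changed by 2, with 12 false calls. The simulated libraries held neither the background of vehicle replicate 3 nor the excess of guadecitabine replicate 1. The simulated libraries covered genes of all levels and held far fewer changed genes than the 2576 higher and 2446 lower called in the data. These numbers thus give neither the recovery nor the false calls in the data, among members or over all genes. Genes were named by size of change among called members with a mean of at least 50 counts and no overlap (10 in each direction, of which only 6 fell), by smallest p per cluster and direction, by the 5 highest levels per kb, by silence in vehicle and by list. Other genes named were picked after their values were seen. The deposited starts count from 0, since adding 1 matched 7171 GENCODE transcript starts against 852 as written. Proteins were translated from GENCODE coding models on GRCh37, and KRAB, SCAN and finger motifs were matched as patterns. No pair of libraries held identical counts. Floors of 3 counts cover counting error only. The value of 1 of the marker genes is not reported here.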

Additional observations from a re-analysis of the deposited data

How the results depend on the processing

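The higher and lower counts of 57 and 7 became 28 and 3 with a log2 fold change of at least 1. The lower count was 18 with an offset for exon length and 20 with the added offset for GC content and exon length, where the split of all calls moved to 1921 higher and 2976 lower and to 2159 and 3414. Leaving out 1 library in turn gave 39 to 86 higher and 6 to 12 lower members and a median log2 fold change of 0.237 to 0.502. Over all genes the same fits gave 1706 to 3002 higher and 1629 to 2575 lower. In the clusters, GC and length offsets took the median of cluster 2 to 0.143. Clusters set at a gap of 2 Mb joined cluster 1 to 2 (0.372), 4 to 5 (0.616) and 7 to 8 (0.332). At a gap of 0.5 Mb the median of cluster 1 was 0.810. With 1 library left out in turn the medians of clusters 1 to 8 ranged over 0.349 to 0.636, 0.2 to 0.567, 0.188 to 0.56, -0.151 to 0.203, 0.538 to 0.889, -0.011 to 0.393, 0.496 to 0.918 and 0.107 to 0.225, so that clusters 4 and 6 changed sign, as cluster 4 also did with the length offset (-0.011) and with GC and length offsets (-0.05). Cluster 1 fell to 0.293 with 10 counts in every sample. The sign of ZNF581, which passed no test, turned with length offset (-0.224), with GC and length offsets (-0.212) and without vehicle replicate 3 (-0.092), guadecitabine replicate 2 (-0.068) or 3 (-0.045). ZNF331, ZNF91 and ZNF587, none of them called, turned without guadecitabine replicate 1, with ranges over single libraries left out of -0.015 to 0.290, -0.108 to 0.718 and -0.020 to 0.222. The cause of these shifts was not tested. No filter, 10 counts in every sample, size factors of DESeq2, library totals and the Wald test of DESeq2 gave 56 to 60 higher and 6 to 8 lower members.

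The samples share only a replicate number. With the replicate block, 50 members were higher and 7 lower, with a median of 0.346. The correlations of deviations between same-numbered vehicle and guadecitabine libraries were -0.0499, 0.0492 and -0.0366, and only the pair numbered 2 correlated best with its own number. Low counts, at most 29 in any library, kept 16 members from the test, and the shallowest library held 8792127 counts.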
